A study of Homo sapiens with 4 samples.

Results

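The metalloproteinases and their inhibitors were taken as all protein-coding genes whose symbol was an MMP, TIMP, ADAM, ADAMTS or ADAMTSL name with a number. This rule used names only and gave 71 of the 58735 genes measured, 19951 of which are protein-coding. There were 23 MMPs (matrix metalloproteinases), 4 TIMPs (tissue inhibitors of metalloproteinases), 20 ADAMs, 19 ADAMTS genes and 5 ADAMTSL genes. RNA was sequenced from U251 and U87, established human glioblastoma (GBM) cell lines, with and without brusatol (Bru), a quassinoid from the plant Brucea javanica. The 4 groups were U251 Control, U251 cells given Bru for 48 h, U87 Control and U87 cells given Bru for 48 h, and each was 1 library. Per the study's text, Bru was given at its IC50, and no concentration is stated with it. All values are therefore differences between single libraries, with no replicate check and no test between conditions.

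MMPs are zinc proteases that are made as inactive precursors and cut collagens and other matrix proteins once their propeptide is removed. TIMPs bind the active site of these enzymes, and TIMP2 together with the membrane-anchored MMP14 also forms the complex in which the MMP2 precursor is activated. ADAMs release the outer part of growth factors, Notch and other membrane proteins, ADAMTS proteases are secreted and cut proteoglycans and procollagen, and ADAMTSL proteins share their domains but lack the protease. MMP2, MMP9 and MMP14 are studied in glioma because the cells move through brain matrix.

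The level of a gene is given as FPKM, fragments scaled to gene length and library size, and also as reads, the number of fragments recovered from the FPKM. Where 4 values follow each other, they stand for U251 Control, U251 Bru, U87 Control and U87 Bru in this order. The libraries held 21453561, 17847910, 18260975 and 17083896 reads on genes, and 3 reads on a gene of 1 kilobase stood for 0.143 to 0.172 FPKM. The glial lineage label held in part. U251 Control carried SOX2 at 129 FPKM, NES at 125 FPKM and GFAP at 2.42 FPKM, whereas U87 Control had SOX2 at 0, NES at 1.46 FPKM and GFAP at 0.215 FPKM. OLIG2 was low but higher in U87 Control, with 38 reads against 2, and both lines were high in the mesenchymal marker VIM. The 8 markers of blood, vessel, myelin and neuronal cells summed to 1.09 to 7.14 FPKM over the libraries, most of it SNAP25, with AIF1 and MOG at 0 in every library.

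The region of chromosome 11 that carries 9 MMP genes is shown first, because it held MMP3, the member that differed most between the Control libraries, and also MMP7 and MMP10. RefSeq start sites matched 44 of the 71 members in a table of 34943 promoters (GRCh38.p14), and of the 9 clustered genes 5 matched. MMP1, MMP3, MMP12 and MMP13 did not match. The 250 bases before the start are printed for MMP7 and MMP10, which had more reads in the U87 Bru than in the U87 Control library, and for MMP20, which had at most 1 read in any library. All 3 genes are on the minus strand, at chr11:102530748-102530997, chr11:102780629-102780878 and chr11:102625333-102625582. Capitals mark the AP-1 letters TGANTCA and the TATA letters TATAAA, searched on both strands.
MMP7: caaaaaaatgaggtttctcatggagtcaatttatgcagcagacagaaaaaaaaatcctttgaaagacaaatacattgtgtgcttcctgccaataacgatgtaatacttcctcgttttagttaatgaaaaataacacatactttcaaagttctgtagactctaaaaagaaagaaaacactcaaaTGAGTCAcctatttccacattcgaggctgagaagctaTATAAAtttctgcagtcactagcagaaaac
MMP10: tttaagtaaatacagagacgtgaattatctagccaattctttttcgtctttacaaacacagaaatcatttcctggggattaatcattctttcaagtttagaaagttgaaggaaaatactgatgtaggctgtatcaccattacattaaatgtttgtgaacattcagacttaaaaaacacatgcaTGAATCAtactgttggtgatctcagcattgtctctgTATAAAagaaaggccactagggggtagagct
MMP20: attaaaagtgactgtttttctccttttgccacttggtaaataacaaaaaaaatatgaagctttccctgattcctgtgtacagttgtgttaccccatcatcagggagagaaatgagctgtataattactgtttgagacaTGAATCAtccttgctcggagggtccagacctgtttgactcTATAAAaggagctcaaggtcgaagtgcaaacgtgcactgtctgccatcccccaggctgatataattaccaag
The AP-1 letters began 67 bases before the start in MMP7 and also 67 in MMP10, with TATAAA at 30 and 31 bases. In MMP20 the same letters lay at 112 and 72 bases. The AP-1 letters were in 6.59% of all promoters of this length and in 4 of the 44 member promoters, those of these 3 genes and of ADAMTS12. TATAAA was in 10.8% of all promoters and in 8 of 44, and the GC box letters GGGCGG in 42.5% and in 30 of 44. The match is a description of letters, and MMP20, which holds both, was silent here. MMP8 and MMP27, matched but not printed, also had at most 1 read in any library and lacked the AP-1 letters.

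Of the 71 members, 54, 57, 51 and 55 had at least 1 read in the 4 libraries. With at least 10 reads the counts were 43, 40, 41 and 44. A level of at least 1 FPKM was reached by 27, 22, 28 and 29 members in the same order. In both Control libraries 22 members reached 1 FPKM, 5 did so in U251 alone (ADAMTS4, ADAMTS10, ADAMTS15, ADAMTSL4 and ADAMTSL5) and 6 in U87 alone (MMP1, MMP3, MMP19, TIMP3, ADAMTS5 and ADAMTS16). No read was found in any library for 6 members, ADAM2, ADAM18, ADAM33, ADAMTS20, MMP26 and MMP27, which allows up to 3 reads in each library. A further 14 had between 1 and 9 reads at most: the collagenases MMP8 and MMP13, MMP20, MMP21, MMP23B, ADAM7, ADAM20, ADAM29, ADAM30, ADAMTS2, ADAMTS8, ADAMTS17, ADAMTS19 and ADAMTSL2. Going from Control to Bru in U251, 5 members crossed 1 FPKM downwards (ADAM23, ADAMTS3, ADAMTS7, ADAMTSL4 and MMP17) and none upwards, whereas in U87 only MMP24 crossed it, upwards. Some crossings were small, as for ADAM23 from 1.31 to 0.992 FPKM. The counts at 1 FPKM were not made over all genes, so they do not set the members apart from other genes.

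Ratios of Bru to Control were taken on FPKM + 0.1 for 12949 genes whose FPKM averaged 1 or more over all libraries, and 29 of these genes were members. The other 42 members were below this level. This filter keeps genes that are high in 1 line alone: MMP1, MMP3, TIMP3, ADAMTS5 and ADAMTS16 were under 1 FPKM in both U251 libraries, and ADAMTS10 and ADAMTS15 in both U87 libraries. Their ratios in that line rest on fewer reads. MMP1 and MMP3 in U251, and ADAMTS10 and ADAMTS15 in U87, had under 10 reads in both libraries. Their ratios there carry little information, but they stay in the counts over 29 members. Intervals are 95% exact intervals of the ratio from the reads and cover counting error only. They leave out the added 0.1, so at low levels they are not centred on the ratio printed beside them.

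In U251, 7 of the 29 members were more than 2-fold lower in the Bru library: ADAM19, MMP17, MMP14, TIMP2, MMP2, ADAM9 and ADAMTS12. Of all genes tested, 5.44% were. No member was more than 2-fold higher, against 3.36% of all genes. In U87, no member passed 2-fold in either direction, against 1.41% lower and 1.92% higher. The median log2 ratio of the 29 members was -0.61 in U251 and -0.27 in U87, where the median of all genes was -0.03 and -0.04.

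A smaller difference was common to more members. The counting interval lay below 0 for 22 of 29 members in U251, where 35.9% of all genes did so, and for 19 of 29 in U87, where 28% did. It did so in both lines for 15 members, against 18% of all genes. The 15 were MMP2, MMP14, MMP15, MMP16, TIMP2, TIMP3, ADAM9, ADAM10, ADAM12, ADAM15, ADAM19, ADAM22, ADAM23, ADAMTS1 and ADAMTS12. It lay above 0 for ADAMTS16 and ADAMTSL1 in U251 (30.9% of all genes) and for MMP3 and ADAMTS6 in U87 (15.7%). The U251 ratio was below the U87 ratio for 21 of 29 members, against 49.1% of all genes. The 21 include ADAMTS10, with 0 reads in both U87 libraries, ADAMTS15, with 1 and 0 there, and MMP1, with 5 and 1 in U251. MMP3, with 2 and 6 reads in U251, is not among the 21. The plot of ratios shows the U251 points spread further to the left than the U87 points.

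**Figure D1:**
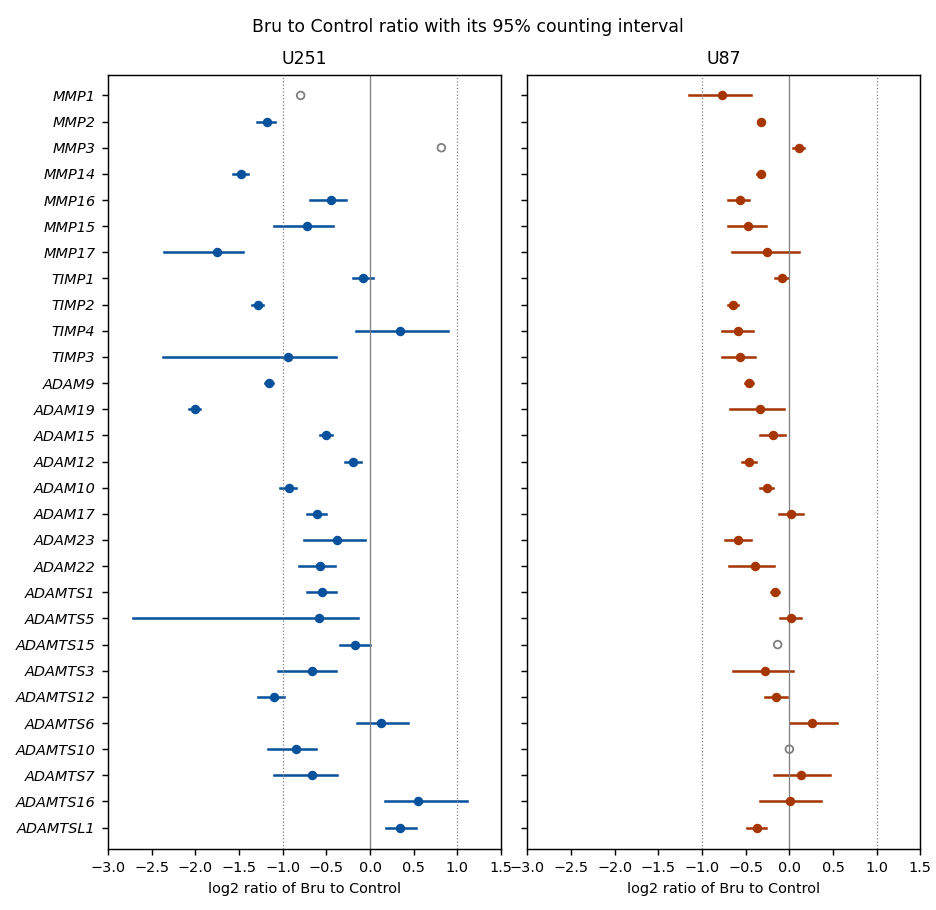
Log2 of Bru over Control, computed on FPKM + 0.1 (x axis), for the 29 members tested (y axis), with the 95% counting interval of the ratio from reads; open circles have under 10 reads over both libraries of the line and carry no interval. In U251, 7 points lie left of -1, and in U87 none lies beyond -1 or 1.

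Summed over all 71 members, the level was 462 FPKM in the U251 Control library and 233 in the Bru library, a ratio of 0.504. In U87 it was 910 and 766, a ratio of 0.841. The families took different shares of this. ADAMs made up 231 and 104 FPKM in U251, and 113 and 85.7 in U87. MMPs made up 81.2 and 33.2 FPKM in U251, and 483 and 417 in U87. U251 thus carried more ADAM than MMP transcript per length and U87 the reverse, in Control and in Bru.

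**Figure D2:**
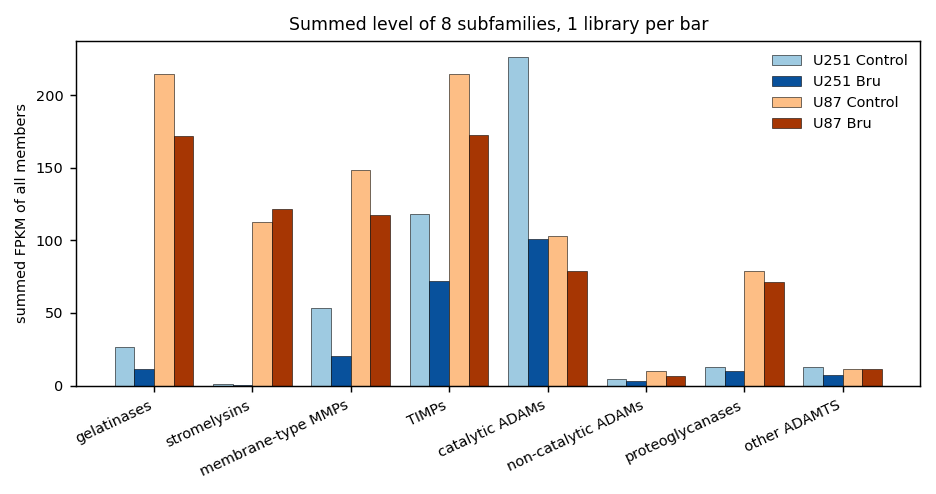
Summed FPKM (y axis, from 0) of all members of 8 subfamilies in the 4 libraries, 1 library per bar. The catalytic ADAMs are the highest bars of U251, at 226 and 101 FPKM, and MMP2 alone makes nearly all of the gelatinase bars of U87, at 215 and 172 FPKM.

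The gelatinases were represented by MMP2, which cuts denatured and type IV collagen. The gene lies at chr16:55389700-55506691 and was at 26.6, 11.7, 215 and 172 FPKM. It was the member with the highest level in both U87 libraries, ranking 114 and 164 among protein-coding genes, against 1708 and 3861 in U251. The log2 ratio was -1.18 in U251 (-1.29 to -1.09) and -0.32 in U87 (-0.35 to -0.29), a difference of 0.86 (0.76 to 0.98). MMP9, the other gelatinase, had 0, 1, 0 and 11 reads. Against a floor of 3 reads in Control, its 11 reads in U87 Bru gave a 3.81-fold higher level. With the counting error of these reads, the exact lower limit of the log2 ratio was 1.38. MMP9 stayed at 0.271 FPKM there. It overlaps SLC12A5-AS1 on the opposite strand, which had 0, 0, 7 and 5 reads, and the part of SLC12A5-AS1 in the MMP9 reads was not tested.

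The membrane-type MMPs, which act at the cell surface, had the lowest median ratios among subfamilies with at least 3 members tested in U251, -1.10 over 4 members, with -0.40 in U87. MMP14 (chr14:22836557-22849027) was at 45.5, 16.3, 134 and 107 FPKM. The U251 Bru library was the lowest and both U87 libraries the highest. The log2 ratio was -1.48 in U251 (-1.57 to -1.40) and -0.33 in U87 (-0.37 to -0.29), and the difference of 1.15 (1.06 to 1.26) was 1 of 3 among members above 1, against 5.11% of all genes. MMP17, which is held by a lipid anchor, was at 2.61, 0.701, 1.82 and 1.51 FPKM. Its ratio was -1.76 in U251 (-2.36 to -1.45) and -0.26 in U87, where the interval of -0.66 to 0.10 includes 0. MMP15 was at 2.32, 1.37, 5.32 and 3.81 FPKM and MMP16 at 1.94, 1.39, 6.40 and 4.29 FPKM. Both were lower with Bru in each line, with ratios of -0.72 and -0.47 for MMP15 and -0.45 and -0.57 for MMP16 in U251 and U87. The intervals of the difference between the lines included 0 for both genes (-0.13 to 0.69 and -0.34 to 0.14).

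MMP24, a further membrane-type enzyme known from the nervous system, had 48, 47, 52 and 91 reads. Its U87 ratio was 0.77 (0.35 to 1.38), but it lies across MMP24OS on the opposite strand, which had 702 to 1158 reads. The libraries do not mark strand, so reads of the 2 genes cannot be told apart where they overlap. MMP25 had 17, 11, 9 and 2 reads.

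The secreted MMPs of the chromosome 11 cluster separated the lines. The 9 genes MMP7, MMP20, MMP27, MMP8, MMP10, MMP1, MMP3, MMP12 and MMP13 lie in that order over 435 kb, all on the minus strand, with no other protein-coding gene between them. MMP3 (stromelysin 1), which cuts many matrix proteins and activates other MMPs, lies at chr11:102835801-102843803. In U251 it was at 0.0466 and 0.158 FPKM, on 2 and 6 reads. In U87 it reached 112 and 121 FPKM, on 4158 and 4311 reads. The U87 ratio of Bru to Control was 0.11 (0.04 to 0.17), so MMP3 was one of the few members that were not lower in the Bru library.

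MMP1, the interstitial collagenase, lies beside MMP3 and had 5, 1, 190 and 106 reads, or 5.34 and 3.09 FPKM in U87. Its U87 ratio was -0.77 (-1.14 to -0.44). The 2 neighbours that were active in U87 therefore stood on opposite sides of 0. MMP10 (stromelysin 2), on the other side of MMP1, had 15, 3, 0 and 22 reads. In U251 the log2 interval was -4.57 to -0.32. In U87 the Bru library was 7.61-fold higher against a floor of 3 reads in Control, and the exact lower log2 limit with counting error was 2.51. MMP7 (matrilysin) had 3, 8, 13 and 27 reads, with a U87 interval of 0.10 to 2.19, and MMP12 had 0, 0, 3 and 11. All of these stayed under 1 FPKM. WTAPP1, which overlaps MMP1, MMP3 and MMP10 on the opposite strand, had 0, 0, 17 and 16 reads. Its part in the reads of these genes was not tested.

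**Figure D3:**
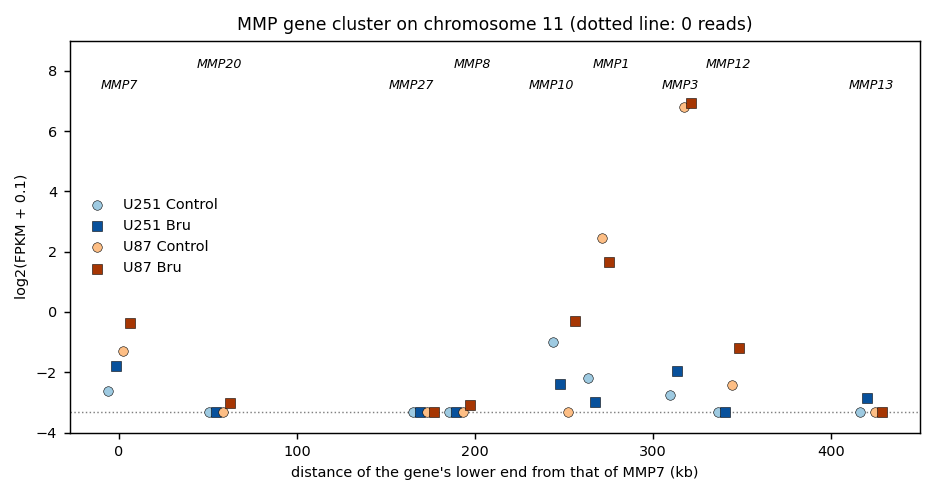
Level of the 9 MMP genes of the chromosome 11 cluster as log2(FPKM + 0.1) (y axis) against the distance of each gene's lower end from that of MMP7 (x axis, kb), 1 point per library, points of a gene moved apart sideways. Both U87 points of MMP3 lie at 112 and 121 FPKM, while MMP20, MMP27 and MMP8 lie at or near the line of 0 reads in every library.

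Outside the cluster, MMP11 had 33, 11, 40 and 18 reads and was lower in the Bru library in both lines, with intervals of -2.54 to -0.39 and -1.99 to -0.26. It overlaps CHCHD10, which had 0 reads in U251 and 233 and 257 in U87. MMP19 had 21, 29, 119 and 107 reads, with intervals that include 0 in both lines. It overlaps TMEM198B, a pseudogene with 139 to 380 reads. MMP28 had 15, 3, 0 and 0 reads. It overlaps TAF15 on the opposite strand, which had 5041 to 10034 reads, and the part of TAF15 in the MMP28 reads was not tested.

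The 4 inhibitors did not move alike. TIMP2, which also takes part in MMP2 activation, lies at chr17:78852977-78925387 and was at 73.8, 30.2, 67.2 and 43.0 FPKM. The U87 Control was 0.13 below the U251 Control on the log2 scale, and both Bru libraries were lower, with ratios of -1.28 (-1.35 to -1.23) and -0.64 (-0.70 to -0.59). TIMP1 was at 42.2, 39.8, 116 and 110 FPKM, and its ratios were -0.08 (-0.20 to 0.03) and -0.09 (-0.16 to -0.02). The U251 value changed sign when reads were scaled by their total on genes. TIMP1 was the TIMP nearest to its Control in both lines.

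TIMP3, the inhibitor that binds matrix and also blocks ADAM17 and ADAMTS enzymes, was at 0.383, 0.152, 7.18 and 4.81 FPKM. It was low in U251, on 37 and 13 reads, and its ratios were -0.94 (-2.37 to -0.39) and -0.57 (-0.77 to -0.39). TIMP4 was at 1.70, 2.19, 23.5 and 15.6 FPKM. The U251 interval of -0.16 to 0.89 includes 0, and the U87 interval of -0.77 to -0.42 does not. The difference between the lines was -0.94 (-1.52 to -0.40). TIMP1, TIMP3 and TIMP4 lie inside genes of the synapsin family on the opposite strand.

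**Figure D4:**
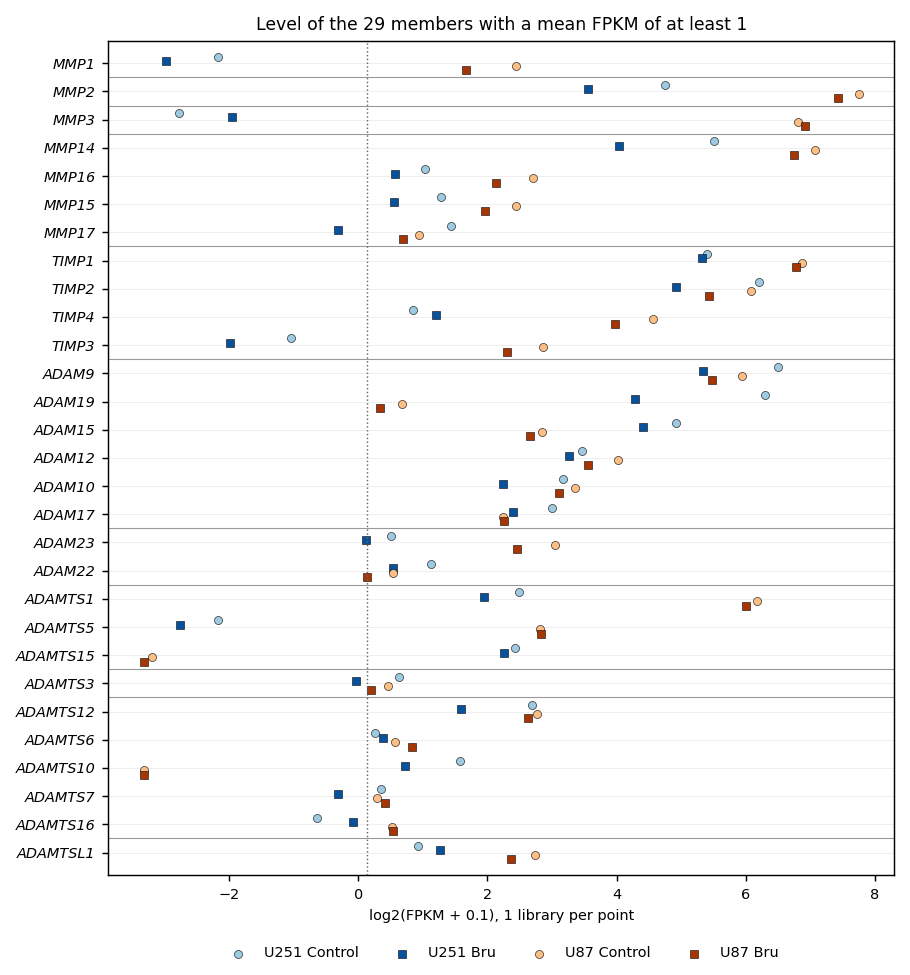
Level of the 29 members tested as log2(FPKM + 0.1) (x axis), 1 point per library, with horizontal lines between subfamilies and a dotted line at 1 FPKM. MMP3, MMP1, TIMP3 and ADAMTS5 have both U251 points far left of the U87 points, and ADAM19, ADAMTS15 and ADAMTS10 the reverse.

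Ratios of FPKM within a library set enzyme against inhibitor. MMP2 to TIMP2 was 0.361 in U251 Control (0.346 to 0.377) and 0.387 in U251 Bru (0.361 to 0.415). In U87 it was 3.19 (3.11 to 3.28) and 4.0 (3.86 to 4.14). In U251 the 2 genes were both lower and the intervals of the ratio overlap, whereas in U87 the ratio was higher in the Bru library. MMP14 to TIMP2 went from 0.617 to 0.538 in U251 and from 1.99 to 2.49 in U87, in opposite directions. MMP2 to MMP14 was 0.585 and 0.719 in U251, and 1.60 and 1.61 in U87. ADAM17 to TIMP3 was 20.7 (15.0 to 29.5) and 34.0 (19.8 to 64.1) in U251, with overlapping intervals. In U87 it was 0.644 (0.580 to 0.716) and 0.973 (0.862 to 1.10).

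**Figure D5:**
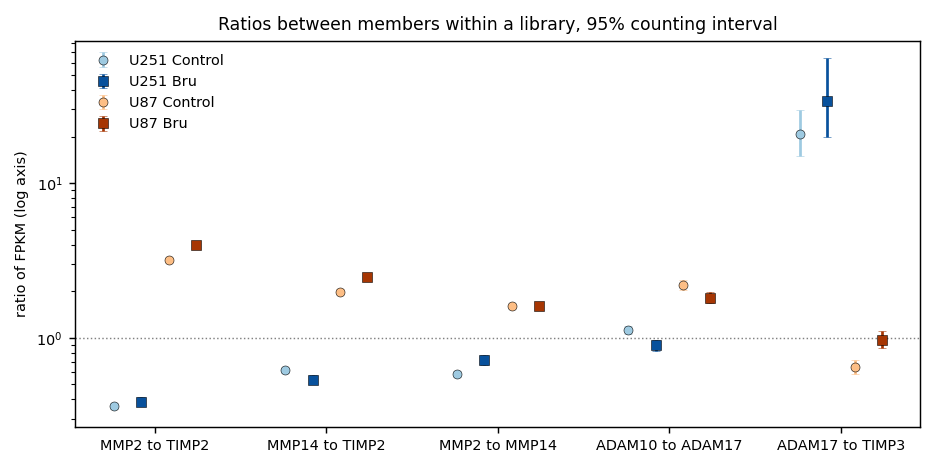
Ratio of FPKM between pairs of members within each library (y axis, log scale) with its 95% counting interval, 1 point per library. MMP2 to TIMP2 lies below 1 in both U251 libraries and at 3.19 and 4.0 in the U87 libraries.

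All 6 catalytic ADAMs tested were lower in the U251 Bru library, with a median ratio of -0.77, and all but ADAM17 in the U87 Bru library, with a median of -0.30. Over all 29 members, 24 were below 0 in U251 and 22 in U87, against 52.1% and 56.7% of all genes. The 24 include MMP1, on 5 and 1 reads, and the 22 include ADAMTS15, on 1 and 0. ADAM19, a sheddase of neuregulins, lies at chr5:157395534-157575775 and was at 78.1, 19.4, 1.50 and 1.16 FPKM. It was the most decreased member of U251 at -2.0 (-2.07 to -1.95). The U87 ratio was -0.34 (-0.68 to -0.06), and the difference of 1.66 (1.33 to 1.95) was the largest of the members tested. ADAM19 had 12625, 2770, 209 and 156 reads. It overlaps CYFIP2 on the opposite strand, which had 602, 478, 898 and 788 reads, and the part of CYFIP2 in the ADAM19 reads was not tested. ADAM9, a sheddase of broad range at chr8:38996869-39105144, was at 89.8, 40.2, 61.2 and 44.4 FPKM. It was the highest member of U251 Control, and its ratios were -1.16 (-1.21 to -1.11) and -0.46 (-0.51 to -0.41).

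ADAM10 and ADAM17 are the sheddases of Notch and of the tumour necrosis factor and epidermal growth factor ligands. ADAM10 was at 8.89, 4.63, 10.2 and 8.50 FPKM, with ratios of -0.93 (-1.04 to -0.85) and -0.26 (-0.34 to -0.18). ADAM17 was at 7.93, 5.18, 4.62 and 4.68 FPKM, with ratios of -0.61 (-0.73 to -0.50) and 0.02 (-0.12 to 0.15). In U251 both were lower in Bru, and in U87 the interval of ADAM17 includes 0. ADAM10 to ADAM17 was 1.12 and 0.893 in U251 and 2.20 and 1.82 in U87. ADAM17 overlaps IAH1 on the opposite strand, which had 458 to 560 reads in each library against 875 to 1789 of ADAM17.

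ADAM15 was at 30.1, 21.2, 7.11 and 6.21 FPKM, with ratios of -0.50 and -0.19. ADAM12 was at 10.9, 9.51, 16.1 and 11.7 FPKM, and its U87 ratio of -0.46 (-0.55 to -0.38) was further from 0 than its U251 ratio of -0.20 (-0.29 to -0.11). Among ADAMs without a working active site, ADAM22 and ADAM23, neuronal receptors of LGI proteins, were lower in both lines. ADAM23 was at 1.31, 0.992, 8.16 and 5.41 FPKM, with ratios of -0.37 and -0.58, and ADAM22 at 2.07, 1.36, 1.35 and 1.0 FPKM, with ratios of -0.57 and -0.40. ADAM8, ADAM11, ADAM21, ADAM28 and ADAM32 were under 1 FPKM in every library. Among these, the interval left out 0 only for ADAM28 in U251, on 13 and 3 reads.

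The ADAMTS proteoglycanases, which cut versican and other lecticans, differed between the lines in which genes were present. ADAMTS1 was at 5.49, 3.74, 71.8 and 64.1 FPKM, with ratios of -0.54 (-0.72 to -0.39) and -0.16 (-0.21 to -0.12). ADAMTS5 had 23, 8, 1135 and 1105 reads, and its U87 ratio was 0.02 (-0.11 to 0.14). ADAMTS5 is the neighbour of ADAMTS1 on chromosome 21, and both were far higher in U87. ADAMTS15 went the other way, with 630 and 494 reads in U251 and 1 and 0 in U87. ADAMTS9 had 53, 26, 94 and 111 reads, with an interval below 0 in U251 (-1.59 to -0.15) and including 0 in U87.

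ADAMTS12, a protease of cartilage oligomeric matrix protein, lies at chr5:33523535-33892192 and was at 6.35, 2.90, 6.72 and 6.05 FPKM. The interval of the ratio of the Controls included 0, and the U251 Bru library was the lowest, with ratios of -1.11 (-1.28 to -0.98) and -0.15 (-0.28 to -0.03). ADAMTS10, which is linked to fibrillin microfibrils, had 343, 163, 0 and 0 reads, with a U251 ratio of -0.85 (-1.17 to -0.62). U87 Control was 98.5-fold lower than U251 Control against a floor of 3 reads, and the exact log2 limit nearest to 0 with counting error was -6.32. ADAMTS3, a procollagen N-proteinase, was at 1.45, 0.880, 1.28 and 1.04 FPKM, lower in U251 (-1.06 to -0.39) with an interval that includes 0 in U87.

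Of the 9 ADAMTS genes tested, 4 were below 0 in U87, against 56.7% of all genes. The median was 0, which is the value of ADAMTS10 on 0 reads in both U87 libraries. ADAMTS15, among the 4, had 1 and 0 reads there. The interval lay above 0 for ADAMTS16 in U251 and for ADAMTS6 in U87. ADAMTS16 had 67, 92, 142 and 138 reads, with 0.55 in U251 (0.17 to 1.11) and 0.01 in U87 (-0.34 to 0.36). ADAMTS6 was at 1.09, 1.20, 1.39 and 1.68 FPKM, with 0.13 in U251 and 0.26 in U87 (0.01 to 0.55). ADAMTS7 had 190, 101, 156 and 166 reads, with -0.66 in U251 (-1.10 to -0.38) and 0.13 in U87 (-0.18 to 0.47), and overlaps MORF4L1, which had 3855 to 7472 reads. ADAMTS14, a second procollagen N-proteinase, was below the filter with 16, 17, 69 and 20 reads. Its U87 ratio was -1.37 (-2.53 to -1.0). ADAMTS13, which cuts von Willebrand factor, had 42, 29, 81 and 85 reads, and ADAMTS18 had 0, 1, 20 and 15. Their Bru intervals included 0 in both lines, and ADAMTS13 overlaps REXO4, which had 873 to 1112 reads.

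Among the ADAMTSL genes, ADAMTSL1 and ADAMTSL4 had opposite directions in the lines. ADAMTSL1 was at 1.80, 2.30, 6.59 and 5.07 FPKM. It was higher with Bru in U251, at 0.34 (0.18 to 0.53), and lower in U87, at -0.37 (-0.49 to -0.27). ADAMTSL4, a microfibril protein whose gene neighbours ECM1 on chromosome 1, had 235, 99, 30 and 60 reads and was below the filter. Its ratio was -0.99 in U251 (-1.42 to -0.72) and 0.83 in U87 (0.40 to 1.74). ADAMTSL5 had 143, 105, 7 and 2 reads, with intervals including 0 in both lines, and ADAMTSL3 had 4, 15, 0 and 3 reads, with a U251 interval of 0.44 to 4.13.

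In the Control libraries, 14 of the 29 members were more than 2-fold higher in U87 and 4 more than 2-fold lower, where 14.5% and 16% of all genes were. The 14 were MMP1, MMP2, MMP3, MMP14, MMP15, MMP16, TIMP1, TIMP3, TIMP4, ADAM23, ADAMTS1, ADAMTS5, ADAMTS16 and ADAMTSL1. The 4 were ADAM15, ADAM19, ADAMTS10 and ADAMTS15. By class, 6 of 7 MMPs tested and 3 of 4 TIMPs were more than 2-fold higher in U87, and no MMP or TIMP among those tested was more than 2-fold higher in U251. MMP1, MMP3, TIMP3, ADAMTS5 and ADAMTS16 among the 14, and ADAMTS10 and ADAMTS15 among the 4, passed the filter only through the line in which they were high, so their place in these counts was partly fixed by the filter. Below the filter, MMP10 and MMP28 each had 15 reads in the U251 and 0 in the U87 Control library. The overlap with TAF15 given above applies to MMP28. The log2 ratio of U87 to U251 Control was 9.58 for MMP3, 3.91 for TIMP3, 3.71 for TIMP4, 3.68 for ADAMTS1 and 3.01 for MMP2, and -5.61 for ADAM19. Each line is 1 library here, so a difference between the lines and between these cultures cannot be told apart.

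Genes that act on the members were read from lists. Of 10 genes listed under activation and clearance of MMPs, 7 were tested. All 7 were lower with Bru in both lines, with medians of -0.86 and -0.37. In U87, BSG was at -0.04, and the interval of PCSK7 (-0.36 to 0.04) includes 0. Of all genes, 52.1% and 56.7% were lower in U251 and U87, and the share lower in both lines at once was not computed. PLAU (urokinase), which generates plasmin, was at 126, 34.4, 64.1 and 42.0 FPKM, PLAT at 22.5, 10.5, 1.73 and 1.13, and LRP1, the receptor that takes up MMPs and TIMPs, at 2.05, 0.722, 47.7 and 40.9. These 3 were past 2-fold in U251, where 5.44% of all genes were, and none was in U87. Of 12 inhibitors other than TIMPs, 6 were tested. A2M, which traps proteases of all kinds, had 1295 and 28 reads in U251 and 0 in U87, THBS2 was at 44.7, 13.8, 1.03 and 0.744 FPKM, and THBS1 at 60.8, 42.4, 0.169 and 0.489. A2M and THBS2 were past 2-fold lower in U251, against 5.44% of all genes. A2M passed the filter only through U251 Control, at 9.67 FPKM against 0.237 in U251 Bru. Its place in this count was therefore partly fixed by the filter. THBS1 was past 2-fold higher in U87 on 28 and 78 reads, against 1.92% of all genes.

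The 9 cofactors of ADAM10 and ADAM17 (iRhoms, tetraspanins and FRMD8) were all tested, with medians of -0.33 and -0.16. None passed 2-fold, and few genes of any kind did. Of all genes, 5.44% were lower and 3.36% higher past 2-fold in U251, and 1.41% and 1.92% in U87. Of 24 shed substrates, 19 were tested and TGFA alone passed 2-fold, in U251, a share near the 5.44% of all genes, at 18.1, 3.94, 9.92 and 8.18 FPKM. The list medians were -0.11 and -0.10. Of the 4 lecticans, the substrates of the proteoglycanases, VCAN (versican) alone passed the filter, at 16.5, 14.7, 17.1 and 17.3 FPKM. Of 8 other proteases of the same metzincin clan, BMP1 and PAPPA were tested. PAPPA, which cuts insulin-like growth factor binding proteins, was at 1.47, 0.275, 5.59 and 4.36 FPKM. It was past 2-fold lower in U251, where 5.44% of all genes were.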

How the data were processed

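Libraries of 4 cultures were made with an NEB Next Ultra kit and sequenced as paired ends. The authors deposited FPKM per gene with gene lengths. The submitters' processing notes name HISAT2 2.0.5, StringTie 1.3.3b, featureCounts 1.5.0-p3, DESeq2 1.16.1 and hg18, without roles. The coordinates of all 58735 genes were nevertheless those of GENCODE 29 (GRCh38). FPKM times length was a whole multiple of 1 step for 100% of values (tolerance 0.01 reads), which gave reads and library sizes. Log2 ratios used FPKM + 0.1 and genes whose FPKM averaged 1 or more. Ratio intervals are exact Clopper-Pearson intervals at 95%, and differences between lines have exact conditional intervals of the odds ratio. Reads carry no molecular identifiers. A library at 0 was set to 3 reads for a fold. Members and lists were chosen with earlier results of these data known. Named were members with a mean FPKM of at least 1 or 20 reads in 1 library, and MMP1, MMP2, MMP9, TIMP1 and TIMP2. Listed genes past 2-fold were named too. Others were named where a count or ratio was small or beside an overlap, chosen after their values were seen. Alternatives were other pseudocounts, scalings and filters, and 2-fold calls whose interval leaves out 1. The files' 3 pseudogenes with matching names were left out, and the ratios of ADAMTS4 are not reported here. Python 3.11.15, scipy 1.17.1 and pandas 2.3.3 were used, and the scripts were tested on simulated data.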

Additional observations from a re-analysis of the deposited data

Results flagged for a closer look

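In 3 members the Bru library lay on opposite sides of its Control in the 2 lines, with both counting intervals leaving out 0. The share of all genes that meet this rule was not computed, so the count does not set the members apart from other genes. The difference of the log2 ratios, U87 minus U251, was 4.43 for MMP10, -0.71 for ADAMTSL1 and 1.81 for ADAMTSL4. For ADAMTSL1 and ADAMTSL4 the exact counting intervals of this difference were -0.94 to -0.53 and 1.37 to 2.89. The value of MMP10 depends on the pseudocount, since it had 0 reads in U87 Control and at most 22 in a library. With 1 library per condition, none of these differences was tested against the spread between cultures. ADAMTSL4-AS1, on the opposite strand of ADAMTSL4, had 54, 24, 3 and 11 reads in U251 Control, U251 Bru, U87 Control and U87 Bru, and its part in the ADAMTSL4 reads was not tested.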

How the results depend on the processing

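No paired analysis was possible because each condition is 1 library, and for the same reason no library could be left out. The number of members lower past 2-fold in U251 was 7 and ranged from 6 to 10 over the alternatives, of which the 10-read minimum was chosen after seeing the data. A pseudocount of 1 lost ADAMTS12, and a pseudocount of 0.01 added MMP1, TIMP3 and ADAMTS5 on few reads. Members higher past 2-fold in U251 went from 0 to 1 (MMP3, on 2 and 6 reads) with a pseudocount of 0.01 and also to 1 with TPM. In U87, where no member tested passed 2-fold, 1 lower and 3 higher members passed with no filter and 1 and 2 with a minimum of 0.1 FPKM, namely ADAMTS14, MMP10 and MMP12, and MMP9 with no filter. The median of all members went to -0.17 in U251 and 0 in U87 with no filter, which brings in 42 low members, many with no reads. The median of the 2 non-catalytic ADAMs in U251 and U87 went to -0.30 and -0.37 with a pseudocount of 1, to -0.0156 and -0.0116 with no filter and to -0.20 and -0.25 with a minimum of 0.1 FPKM. That of the 3 proteoglycanases went to -0.14 in U251 with a pseudocount of 1, and in U87 to -0.16 with a pseudocount of 0.01 and -0.17 with TPM. With no filter, the median of the membrane-type MMPs went from -1.10 to -0.59 in U251 and stayed at -0.40 in U87. That of the catalytic ADAMs went from -0.77 to -0.36 in U251 and from -0.30 to -0.12 in U87. With a pseudocount of 1, 56 of 188 ratios and differences of single members left their counting intervals, against 0 to 13 with the other pseudocount and scalings. No member past 2-fold changed sign. Scaling reads by their total on genes moved the median of all genes by 0.09 in U251. For members with few reads, 3 reads at 1 kb (0.143 to 0.172 FPKM) limit what can be seen.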
